A study of Mus musculus with 12 samples.

Results

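The constitutive androstane receptor CAR (gene Nr1i3) and the pregnane X receptor PXR (gene Nr1i2) are the liver's sensors of drugs and other foreign chemicals, and their target enzymes were followed here in the livers of adult sons of mice with and without uncoupling protein 1 (UCP1). The genes were chosen by symbol from a list of 10: the 2 receptors, the reductase Por, the cytochrome P450 genes Cyp2b9, Cyp2b10, Cyp2b13, Cyp3a11, Cyp3a13 and Cyp3a25, and the carboxylesterase Ces2a. A probe set with that symbol was found for 9 of them, 1 probe set each, out of 19505 gene symbols on the array. Por, which passes electrons from NADPH to every microsomal P450, had none and was not analysed here.

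Total liver RNA was measured on 1 array per mouse. There were 6 male offspring of UCP1-KO dams (arrays 7 to 12) and 6 male offspring of WT dams (arrays 1 to 6), all C57BL/6J, 4 to 5 months old, fed chow and held at 23 °C. Both kinds of dam were bred to sires heterozygous for the Ucp1 deletion, and the labels give every offspring as heterozygous (HET). The groups therefore differed in the mother's genotype and in the parent that passed on the deleted allele, which cannot be told apart. UCP1 lets brown fat mitochondria release heat, and the study's subject was the dam's brown fat and the glucose tolerance of her male young. The labels name no litters. A p-value here therefore rests on the variation among these mice alone, and littermates may be among them. Values are log2 signals, on which 1 unit is a doubling, and every difference is the mean of UCP1-KO-dam arrays less that of WT-dam arrays.

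As background, CAR rests in the cytoplasm of hepatocytes and enters the nucleus after exposure to compounds such as phenobarbital, whereas PXR is activated by binding steroids, bile acids and many drugs. Each pairs with the retinoid X receptor and binds repeats of a hexamer close to AGGTCA near target genes, of which Cyp2b10 is the classic mouse target of CAR and Cyp3a11 that of PXR. Bile acids, fasting and growth hormone also bear on these genes in the liver, and Cyp2b9 and Cyp2b13 are known as female-predominant P450 genes.

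Hepatocyte markers were bright on all 12 arrays, with the mean over the 10 markers at 18.48 to 18.68 in offspring of UCP1-KO dams and 18.33 to 18.56 in offspring of WT dams. Negative control probe sets had a median signal of 5.96 to 6.36 in offspring of UCP1-KO dams and 6.14 to 6.62 in offspring of WT dams, and among WT-dam arrays it was higher on arrays 3 to 6 (6.41 to 6.62) than on arrays 1 and 2 (both 6.14). On the first principal component, which held 19.8% of the variance, UCP1-KO-dam arrays 8, 10 and 11 had scores of 26.3 to 37.5 and lay away from the rest, all other arrays scoring -24.1 to 1.71. The differences of the genes described were recomputed without either set. In bulk liver, fewer cells of a type and less RNA per cell cannot be told apart.

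The dam's genotype was followed by no called difference in any of the 9 genes (limma, Benjamini-Hochberg adjusted p = 0.268 to 0.929). Over all 22206 probe sets 8 were called, 0.036%, of which 1 was higher (0.0045%) and 7 were lower (0.0315%) in offspring of UCP1-KO dams. At an unadjusted p under 0.05 there was 1 of the 9, Nr1i3, against 13.1% of all probe sets. In none of the 9 genes were the groups free of overlap, against 1.05% of all probe sets. The difference was below 0 in 5 genes and above 0 in 4, with a median of -0.06 beside 0.03 over all probe sets. The genes differed among themselves in spread. Nr1i3, Cyp2b9 and Cyp2b10 varied widely from mouse to mouse, while Nr1i2, Cyp3a11, Cyp3a13 and Ces2a lay within 0.72 log2 units over all 12 mice.

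**Figure D1:**
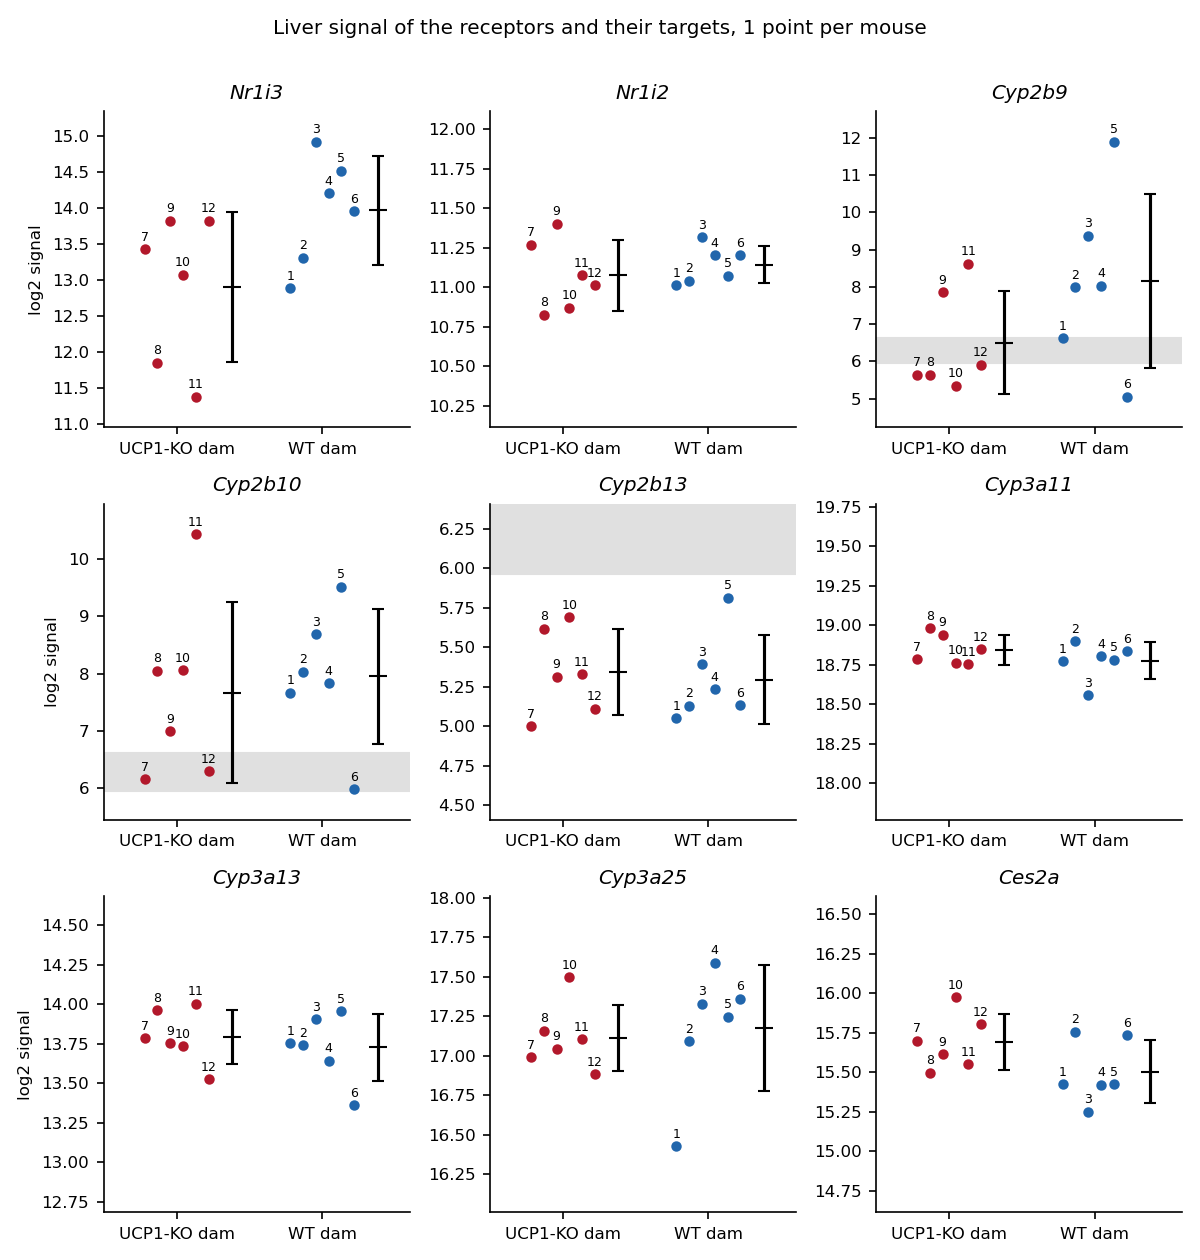
Log2 signal (vertical axes, scaled separately for each gene) of the 9 genes in offspring of UCP1-KO dams (red) and of WT dams (blue), with 1 numbered point per mouse and the mean with its SD (n = 6) in black. The grey band spans the negative control medians of the 12 arrays, 5.96 to 6.62, and all 12 Cyp2b13 points lie below it, whereas Cyp2b9 and Cyp2b10 spread from within or below the band to 11.89 and 10.43.

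Of the receptors, Nr1i3 had the lowest adjusted p of the set. Its probe set (TC0100001579.mm.2) ran from 11.38 through a median of 13.25 to 13.83 in offspring of UCP1-KO dams, and from 12.89 through 14.09 to 14.93 in offspring of WT dams. The 2 lowest, 11.85 and 11.38 on UCP1-KO-dam arrays 8 and 11, were under every WT-dam value, the other 4 lay within the WT-dam range, and WT-dam arrays 3 to 6 lay above all UCP1-KO-dam arrays. The means were 12.90 ± 1.04 in offspring of UCP1-KO dams and 13.97 ± 0.76 in offspring of WT dams (SD, n = 6 each), a log2 difference of -1.07 (95% interval -1.93 to -0.21) or 0.476-fold, which did not pass (limma adjusted p = 0.268, unadjusted p = 0.0174).

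The Nr1i3 difference was smaller without the arrays set apart by negative controls or the first principal component. On WT-dam arrays 3 to 6 the Nr1i3 values were the highest of their group. On UCP1-KO-dam arrays 8, 10 and 11 they were the lowest of theirs. Leaving out either set therefore had to shrink the difference and is no independent check. The difference was -0.20 (interval -1.41 to 1.00) without WT-dam arrays 3 to 6, those with brighter negative controls, and -0.72 with the negative control median as a covariate. It was -0.28 (interval -1.02 to 0.46) without UCP1-KO-dam arrays 8, 10 and 11. Leaving out single arrays gave -1.29 to -0.77. Liver lobules run from periportal to pericentral hepatocytes, and CAR targets are known mainly from the pericentral ones. Of 17 pericentral genes 0 passed, an unadjusted p below 0.05 marked 5 as lower and 0 as higher, against 6.0% and 7.08% of all probe sets, and the median difference was -0.27. Lect2 had -0.72, Cyp1a2 -0.64, Gulo -0.59 and Slc1a2 -0.44, and without UCP1-KO-dam arrays 8, 10 and 11 Lect2 had -0.39, Cyp1a2 -0.10, Gulo -0.28 and Slc1a2 -0.09. Of 11 periportal genes 0 passed, 3 were higher and 0 lower at that level, against the same shares, and the median was 0.23. Etnppl had 0.84, Pck1, a gene of glucose synthesis, 0.58, Aldh1b1, an aldehyde dehydrogenase, 0.52 and Hsd17b13 0.45. With UCP1-KO-dam arrays 8, 10 and 11 left out, Etnppl had 0.49 and Aldh1b1 -0.34, and without WT-dam arrays 3 to 6 Etnppl had 0.50 and Pck1 0.26. Without UCP1-KO-dam array 11 alone Aldh1b1 had 0.17. The median of the pericentral genes on an array, each centred on its own mean, was -0.53 to -0.27 on UCP1-KO-dam arrays 8, 10 and 11, 0.02 to 0.09 on UCP1-KO-dam arrays 7, 9 and 12, and 0.04 to 0.21 in offspring of WT dams. The median of the periportal genes was -0.08 to 0.42 in offspring of UCP1-KO dams and -0.37 to 0.01 in offspring of WT dams. The part of zonation in the Nr1i3 values was not tested.

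Nr1i2, the gene of PXR, had a difference near 0. It ran from 10.82 through 11.04 to 11.40 in offspring of UCP1-KO dams and from 11.01 through 11.14 to 11.32 in offspring of WT dams. The difference was -0.07 (interval -0.34 to 0.21, adjusted p = 0.875), and the interval allows 0.791-fold to 1.15-fold. It was 0.09 without UCP1-KO-dam arrays 8, 10 and 11. UCP1-KO-dam arrays 8 and 10 were the lowest of all, at 10.82 and 10.87, and UCP1-KO-dam arrays 9 and 7 were among the 3 highest, at 11.40 and 11.27. Between the 2 receptors Pearson's r was 0.569 and Spearman's rho 0.580 over 12 arrays (permutation p = 0.0529 and 0.0506), which did not pass after adjustment over the 17 pairs tested (0.300 and 0.287). Within the groups r was 0.487 in offspring of UCP1-KO dams and 0.780 in offspring of WT dams (n = 6 each, exact permutation p = 0.304 and 0.0722).

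The Cyp2b genes lie in a cluster on chromosome 7 and encode P450 enzymes that hydroxylate steroids and drugs. The 250 bases upstream of the start sites of the 3 members are shown to compare the copies in sequence. They come from RefSeq on GRCm38.p6, at chr7:26173159-26173408 on the plus strand, chr7:26061245-26061494 on the plus strand and chr7:25897408-25897657 on the plus strand, written 5′ to 3′ along the gene with capitals for the hexamer AGGTCA or AGTTCA on either strand.
Cyp2b9: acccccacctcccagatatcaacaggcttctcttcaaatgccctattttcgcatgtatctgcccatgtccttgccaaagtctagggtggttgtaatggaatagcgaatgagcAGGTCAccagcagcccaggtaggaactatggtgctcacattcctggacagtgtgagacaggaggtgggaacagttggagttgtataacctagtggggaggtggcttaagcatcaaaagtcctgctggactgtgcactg
Cyp2b13: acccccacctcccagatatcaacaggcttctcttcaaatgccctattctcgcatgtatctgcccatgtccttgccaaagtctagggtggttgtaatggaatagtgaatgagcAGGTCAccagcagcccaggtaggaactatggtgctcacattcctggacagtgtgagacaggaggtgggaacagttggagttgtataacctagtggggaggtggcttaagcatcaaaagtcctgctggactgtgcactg
Cyp2b10: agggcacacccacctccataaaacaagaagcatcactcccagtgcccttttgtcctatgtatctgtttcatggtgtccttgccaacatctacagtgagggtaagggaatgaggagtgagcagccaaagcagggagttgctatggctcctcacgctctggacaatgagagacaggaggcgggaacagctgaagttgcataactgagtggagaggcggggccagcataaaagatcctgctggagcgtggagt
Cyp2b9 and Cyp2b13 were identical at 248 of the 250 positions (99.2%), and the exceptions were T48C and C104T, with the Cyp2b9 base first, the position counted from 1 at the 5′ end of the window, and the Cyp2b13 base last. Cyp2b10 was 70.0% identical to each over a gapped alignment. The hexamer begins 138 bases before the start in Cyp2b9 and Cyp2b13, and the Cyp2b10 window holds none. These windows lie outside the transcripts that the array reads, so their likeness does not show how far the signals can be told apart. How far the array's probes separate these genes is not given in the sources used here. Signal attributed to any 1 of them is uncertain to that extent.

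Cyp2b9 had the widest spread of the set. It ran from 5.35 through 5.78 to 8.62 in offspring of UCP1-KO dams and from 5.06 through 8.01 to 11.89 in offspring of WT dams, so all 6 UCP1-KO-dam arrays lay within the WT-dam range. Only UCP1-KO-dam arrays 9 and 11, at 7.86 and 8.62, were above their array's negative control median, as were all WT-dam arrays except array 6, at 5.06. The highest values were 11.89 and 9.37 on WT-dam arrays 5 and 3. The distance between the dimmest and brightest mouse was 6.83 log2 units, and the within-group SD of 1.92 exceeded that of 99.96% of all probe sets. The means were 6.50 ± 1.38 in offspring of UCP1-KO dams and 8.16 ± 2.34 in offspring of WT dams (SD, n = 6 each). Their log2 difference of -1.66 (interval -3.42 to 0.11) was the largest of the 9 genes in size and did not pass (adjusted p = 0.410). It was -0.91 with WT-dam array 5 left out and -0.80 when WT-dam arrays 3 to 6 were all omitted, and -1.69 without UCP1-KO-dam arrays 8, 10 and 11. Since 4 of 6 UCP1-KO-dam arrays were below the negative controls, the size of this difference does not measure a change in transcript.

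Cyp2b10, the CAR target, ran from 6.17 through 7.53 to 10.43 in offspring of UCP1-KO dams and from 5.99 through 7.93 to 9.52 in offspring of WT dams. The groups overlapped almost wholly, and UCP1-KO-dam array 11, at 10.43, was the only array outside the WT-dam range. UCP1-KO-dam array 7 and WT-dam array 6, at 6.17 and 5.99, were below their negative control medians. The difference was -0.29 (interval -1.58 to 1.00, adjusted p = 0.886), an interval that spans 0.335-fold to 2.00-fold. Without UCP1-KO-dam arrays 8, 10 and 11 it was -1.46 (interval -2.58 to -0.35, adjusted p = 0.516), and without UCP1-KO-dam array 11 alone it was -0.84. Arrays 8, 10 and 11 held the highest Cyp2b10 values of their group. Leaving them out therefore had to lower the difference and is no independent check. Without WT-dam arrays 3 to 6 the difference was -0.18. The within-group SD of 1.39 exceeded that of 99.9% of all probe sets.

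Cyp2b13 read 5.00 through 5.32 to 5.69 in offspring of UCP1-KO dams and 5.05 through 5.19 to 5.82 in offspring of WT dams. All 12 values were below the negative control median of their own array, so expression is not shown in either group and no fold is given. The background controls read lower, with a mean of 4.95 to 5.05 by array. Cyp2b13 was above that mean on 5 of 6 UCP1-KO-dam arrays and 6 of 6 WT-dam arrays. The fitted difference of 0.05 had an adjusted p of 0.929.

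The Cyp3a enzymes carry out much of hepatic drug and steroid oxidation. The upstream windows of the liver genes Cyp3a11 (chr5:145879855-145880104 on the minus strand) and Cyp3a25 (chr5:146009619-146009868 on the minus strand) each hold the hexamer at 2 places, in the same notation.
Cyp3a11: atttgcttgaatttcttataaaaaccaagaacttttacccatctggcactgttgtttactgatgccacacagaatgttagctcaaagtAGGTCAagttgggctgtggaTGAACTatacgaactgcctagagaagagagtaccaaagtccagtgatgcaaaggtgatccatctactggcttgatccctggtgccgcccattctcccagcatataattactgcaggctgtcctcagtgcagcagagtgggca
Cyp3a25: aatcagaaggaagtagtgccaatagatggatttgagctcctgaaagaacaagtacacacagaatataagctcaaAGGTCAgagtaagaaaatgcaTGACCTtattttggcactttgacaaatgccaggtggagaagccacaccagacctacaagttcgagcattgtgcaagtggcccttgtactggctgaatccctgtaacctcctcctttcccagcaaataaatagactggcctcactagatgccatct
The hexamer matches begin 162 and 142 bases before the start in Cyp3a11 and 176 and 155 bases before it in Cyp3a25. AGGTCA was present on either strand in 14.0% of the 32851 upstream windows of that table and in 5 of the 10 listed genes (Cyp2b9, Cyp2b13, Cyp3a11, Cyp3a25 and Ces2a), and AGTTCA in 11.8% of all windows and in 1 of the 10 (Cyp3a11). Direct repeats of the hexamers spaced by 3, 4 or 5 bases and everted repeats spaced by 6 or 8 bases, the arrangements known for both receptors, were in 0 of the 10 windows and in at most 0.0335% of all. These are matches of letters in short windows and show no binding, and known elements of some of these genes lie farther upstream.

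Cyp3a11, the PXR target, ran from 18.75 through 18.82 to 18.98 in offspring of UCP1-KO dams and from 18.56 through 18.79 to 18.90 in offspring of WT dams. Its difference was 0.07 (interval -0.17 to 0.31, adjusted p = 0.836), which allows 0.890-fold to 1.24-fold, and it was 0.03 without WT-dam array 3, the lowest. The within-group SD of 0.11 exceeded that of only 0.626% of all probe sets. The brightest value of any probe set on any array was 19.72, so Cyp3a11 lay near the top of the scale, and whether its probes were saturated was not tested.

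Cyp3a13, known mainly from the intestine, ran from 13.53 through 13.77 to 14.00 in offspring of UCP1-KO dams and from 13.36 through 13.75 to 13.96 in offspring of WT dams, with a difference of 0.07 (interval -0.21 to 0.35, adjusted p = 0.875). Cyp3a25 ran from 16.88 through 17.08 to 17.50 in offspring of UCP1-KO dams and from 16.43 through 17.29 to 17.59 in offspring of WT dams, with a difference of -0.06 (interval -0.43 to 0.30, adjusted p = 0.920). WT-dam array 1, at 16.43, was the lowest for Cyp3a25, and all UCP1-KO-dam arrays lay within the WT-dam range. Without WT-dam arrays 3 to 6 the Cyp3a25 difference was 0.35 and did not pass (adjusted p = 0.777), and it was -0.20 without UCP1-KO-dam arrays 8, 10 and 11.

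Ces2a, a carboxylesterase that hydrolyses esters of drugs and lipids and is induced through both receptors, ran from 15.50 through 15.66 to 15.97 in offspring of UCP1-KO dams and from 15.25 through 15.43 to 15.76 in offspring of WT dams. Its difference of 0.19 (interval -0.09 to 0.47, adjusted p = 0.570) was above 0 in all 20 alternatives and passed in none (0.10 to 0.24). The alternatives reuse the same arrays, and the signs of Nr1i3, Cyp2b9 and Cyp3a11 also held in all 20. For Ces2a, UCP1-KO-dam arrays 10 and 12, at 15.97 and 15.81, were above every WT-dam array.

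**Figure D2:**
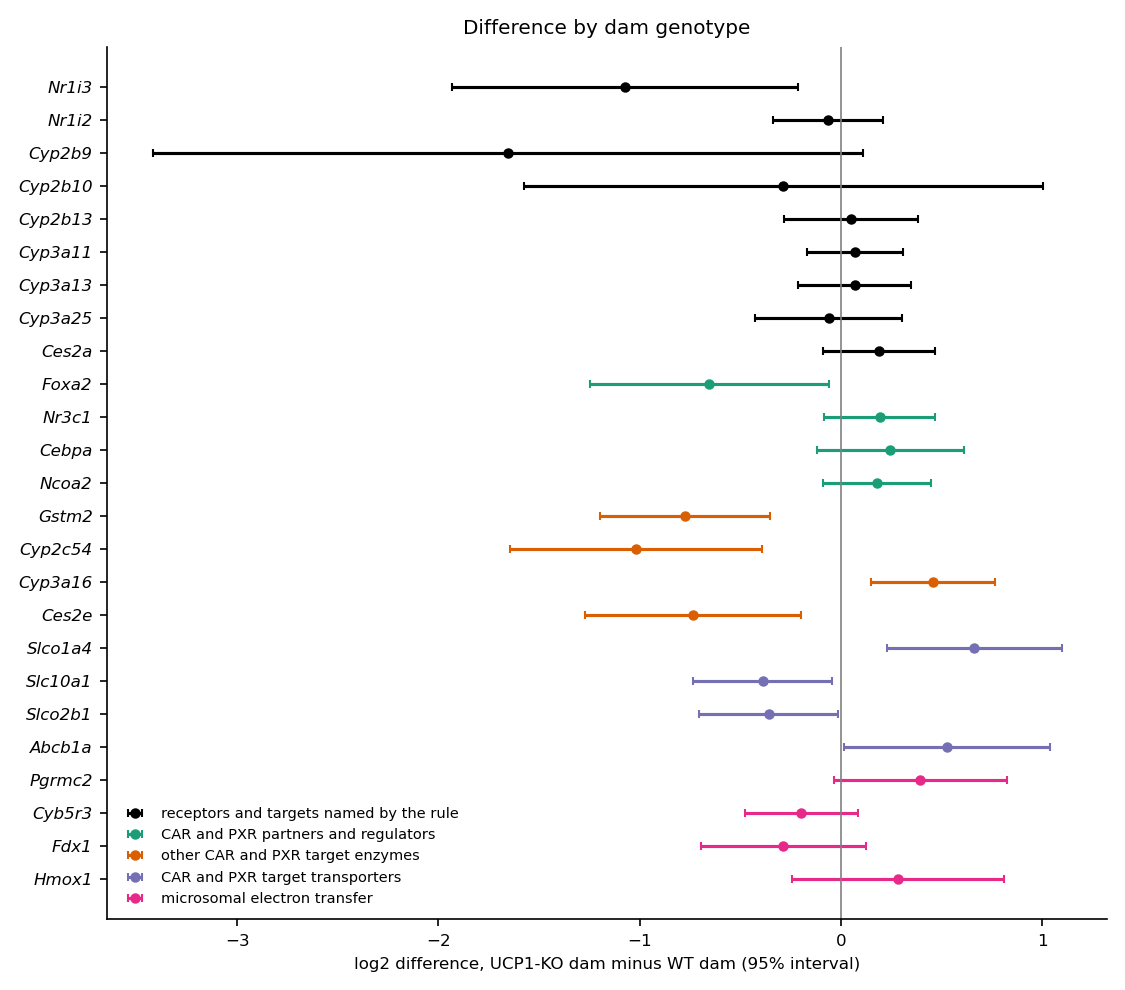
Log2 difference by dam genotype (horizontal axis, UCP1-KO dam minus WT dam, with 95% intervals from limma) for the 9 genes (black) and the 4 genes of smallest p in each of 4 lists of the same pathway (colours). The intervals of Cyp2b9 and Cyp2b10 are the widest, and none of the genes drawn passed after adjustment.

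The other genes of the pathway did not pass either. Of 14 measured partners and regulators of the receptors, 0 passed (adjusted p between 0.328 and 0.997), with a median difference of -0.02. Against 13.1% of all probe sets, 1 of the 14 was below 0.05 before adjustment. This was Foxa2, a pioneer factor of liver genes, at 10.16 ± 0.54 in offspring of UCP1-KO dams and 10.82 ± 0.66 in offspring of WT dams (SD, n = 6 each, difference -0.65, and -0.39 without UCP1-KO-dam arrays 8, 10 and 11). Nr3c1, the glucocorticoid receptor, had a difference of 0.19, Cebpa, a liver transcription factor, 0.24 and Ncoa2, a nuclear receptor coactivator, 0.18. Without UCP1-KO-dam arrays 8, 10 and 11 Nr3c1 had 0.31, Cebpa 0.44 and Ncoa2 0.09, and without WT-dam arrays 3 to 6 Cebpa had 0.12 and Ncoa2 0.27. Single arrays also moved them: Nr3c1 had 0.11 without UCP1-KO-dam array 12, Cebpa 0.15 without array 9 and Ncoa2 0.12 without array 10. Of 8 measured genes of microsomal and mitochondrial electron transfer and heme turnover, 0 passed and 0 had an unadjusted p under 0.05 (median -0.08), against 13.1% of all probe sets. Pgrmc2, a heme-binding membrane protein, had a difference of 0.39, Cyb5r3, the cytochrome b5 reductase, -0.20, Fdx1, a ferredoxin, -0.29 and Hmox1, heme oxygenase, 0.28. Omitting UCP1-KO-dam arrays 8, 10 and 11 gave 0.19 for Pgrmc2, -0.06 for Cyb5r3 and -0.13 for Hmox1, and without WT-dam arrays 3 to 6 Pgrmc2 had 0.26, Cyb5r3 -0.37 and Hmox1 -0.29.

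Of 33 further target enzymes, 0 passed (adjusted p = 0.129 to 0.967), with a median difference of -0.07. At an unadjusted p under 0.05, 7 were lower and 2 higher in offspring of UCP1-KO dams, against 6.0% and 7.08% of all probe sets. Cyp1a2, among the lower genes here, was also counted among the pericentral genes. Gstm2, a glutathione S-transferase, read 12.10 ± 0.47 in offspring of UCP1-KO dams and 12.88 ± 0.30 in offspring of WT dams (SD, n = 6 each, difference -0.77). Cyp2c54, a P450 of the Cyp2c family, read 14.42 ± 0.85 in offspring of UCP1-KO dams and 15.44 ± 0.33 in offspring of WT dams (difference -1.02, and -0.25 without UCP1-KO-dam arrays 8, 10 and 11). Ces2e, a carboxylesterase of the same family as Ces2a, had a difference of -0.74 (-0.14 without those 3 arrays) and Cyp3a16, a female-predominant P450, 0.46, at a signal near that of the negative controls. Leaving out single arrays moved Cyp2c54 to between -1.18 and -0.84 and Ces2e to between -0.87 and -0.55.

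Of 9 transporters of the pathway, 0 passed (adjusted p = 0.185 to 0.885), with a median of 0.06. Before adjustment a p below 0.05 marked 2 as higher and 2 as lower, against 7.08% and 6.0% of all probe sets. Slco1a4, an uptake carrier of organic anions, had a difference of 0.66 (0.24 without UCP1-KO-dam arrays 8, 10 and 11). Slc10a1, the bile salt uptake carrier, had -0.39 (-0.07 without those arrays), Slco2b1, another organic anion carrier, -0.36 (-0.23 without UCP1-KO-dam array 8), and Abcb1a, an efflux pump for drugs, 0.53. Female-predominant liver genes, a list that includes Cyp2b9 and Cyp2b13, had 0 of 24 called and a median of 0.16. Of these 24, 6 were below the negative control medians on all arrays. Male-predominant genes had 0 of 20 called and a median of -0.18, and of all probe sets 0.036% were called. An unadjusted p under 0.05 marked 3 female-predominant genes as higher and 1 as lower. It marked 0 male-predominant genes as higher and 1 as lower, against 7.08% and 6.0% of all probe sets. The female-predominant list shares genes, Cyp3a16 and Cyp3a44 among them, with the further target enzymes, so the lists are not independent. Of the female-predominant genes, Abcd2, a peroxisomal fatty acid transporter, had a difference of 1.39, Cyp4a10, a fatty acid hydroxylase, -0.64 and Cyp3a44, a P450, 0.37. When UCP1-KO-dam arrays 8, 10 and 11 were omitted, Abcd2 had 0.26 and Cyp4a10 -0.19, and without WT-dam arrays 3 to 6 Cyp3a44 had 0.18. Of the male-predominant genes, Susd4, a complement regulator, had -0.89 (-0.20 without UCP1-KO-dam arrays 8, 10 and 11), Selenbp2, a selenium-binding protein, -0.76 (-0.45 without WT-dam array 6), Cspg5, a proteoglycan, 0.28 and Mup20, a major urinary protein, 0.21. The fitted Cyp2b9 difference had the opposite sign to the median of its list, and no test was made of that. With Cyp2b9 below the negative controls on 4 of 6 UCP1-KO-dam arrays, this difference does not measure a change in transcript.

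Whether receptors and targets varied together was examined over the 17 pairs whose genes were both measured. No pair passed (Benjamini-Hochberg adjusted permutation p of 0.179 or more for Pearson's r and 0.105 or more for Spearman's rho). Of 10 pairs of a receptor with a target, 0 had an unadjusted p under 0.05. CAR and its classic target, Nr1i3 and Cyp2b10, had r = -0.294 and rho = -0.126 (permutation p = 0.354 and 0.700, n = 12 arrays). Within the groups r was -0.875 in offspring of UCP1-KO dams and 0.406 in offspring of WT dams (n = 6 each, exact permutation p = 0.0167 and 0.433, adjusted 0.283 and 0.536), and the difference between the groups was not tested. The negative sign rested on UCP1-KO-dam array 11: without it r was 0.149, without UCP1-KO-dam array 8 it was -0.304, and without both, the 2 arrays farthest from the median of Nr1i3, it was 0.349. Without WT-dam arrays 3 to 6 it was -0.844 (n = 8, adjusted exact permutation p = 0.0725), and without UCP1-KO-dam arrays 8, 10 and 11 it was 0.456. PXR and its classic target, Nr1i2 and Cyp3a11, had r = -0.277 and rho = -0.147 (permutation p = 0.389 and 0.649).

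**Figure D3:**
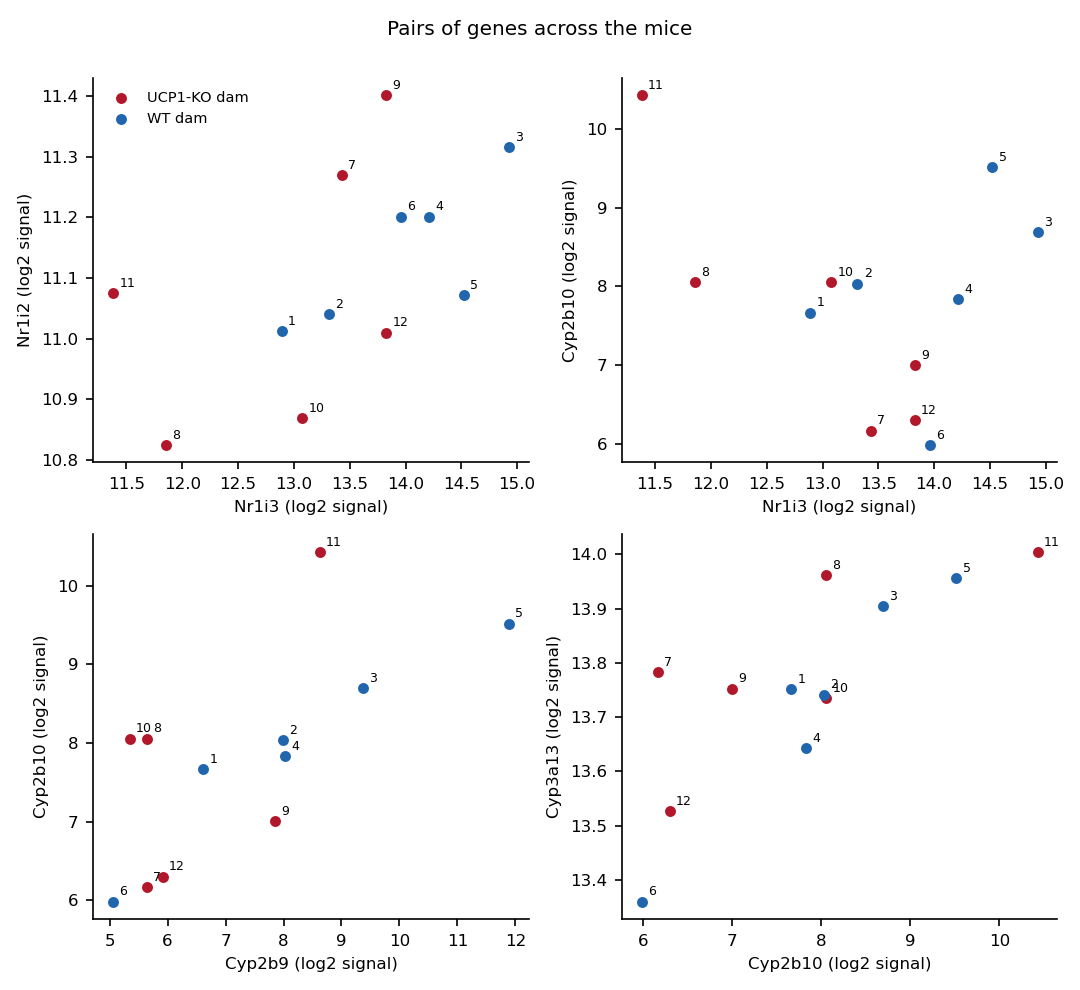
Log2 signals of 4 pairs of genes, 1 numbered point per mouse, with offspring of UCP1-KO dams in red and of WT dams in blue. UCP1-KO-dam array 11 combines the lowest Nr1i3 value, 11.38, with the highest Cyp2b10 value, 10.43, and WT-dam array 5 has the highest Cyp2b9 value, 11.89, with a Cyp2b10 value of 9.52.

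Between targets, the lowest unadjusted p among the 17 pairs was that of Cyp2b9 with Cyp2b10 by Pearson's r and that of Cyp2b10 with Cyp2b13 by Spearman's rho. Cyp2b9 and Cyp2b10 had r = 0.703 and rho = 0.664 over 12 arrays (permutation p = 0.0106 and 0.0221, adjusted 0.179 and 0.188), with r = 0.576 in offspring of UCP1-KO dams and 0.961 in offspring of WT dams. Without the 2 arrays farthest from the median of Cyp2b9 it was 0.573, and it was 0.942 without UCP1-KO-dam arrays 8, 10 and 11, where it passed (adjusted exact permutation p = 0.00309, n = 9). That omission was added after the data were seen. Of the arrays it kept, WT-dam array 6 and UCP1-KO-dam arrays 7 and 12 had Cyp2b9 below their negative control medians. Without WT-dam arrays 3 to 6 the r of Cyp2b9 with Cyp2b10 was 0.563 with a rho of 0.238 and did not pass (adjusted exact permutation p = 0.895 and 0.900, n = 8). Cyp2b10 and Cyp2b13 had r = 0.585 and rho = 0.755 (permutation p = 0.0458 and 0.00619, adjusted 0.300 and 0.105), though Cyp2b13 was below the negative control medians. Without the 2 arrays farthest from the median of Cyp2b10 this pair passed by rho, at 0.85, but not by r, at 0.731 (adjusted permutation p = 0.0496 and 0.257, n = 10). Cyp2b10 and Cyp3a13, a pair singled out after its values were seen, had r = 0.791 and rho = 0.664 (permutation p = 0.00214 and 0.0222). Adjusted over all 36 pairs of the 9 genes it did not pass (0.077 and 0.229). Its r was 0.757 in offspring of UCP1-KO dams and 0.968 in offspring of WT dams (n = 6 each, exact permutation p = 0.0889 and 0.00556), and 0.662 without the 2 arrays farthest from the median of Cyp2b10.

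The genes whose patterns were most like those of 4 members were looked up as a description, among 11837 named probe sets above the background controls on every array, by Pearson's r over the 12 arrays after each group was centred on its mean. Closest to Nr1i3 were Npr2, a natriuretic peptide receptor (r = 0.913), Atat1, a tubulin acetyltransferase (0.908), and Rabl6 (0.907). Closest to Cyp2b10 were Mat1a, the liver's S-adenosylmethionine synthetase (0.965), Cyp17a1, a steroid hydroxylase (0.941), and Bche, butyrylcholinesterase (0.917). Closest to Cyp2b9 were Ccdc14 (0.878), Vtcn1 (0.866) and Cacng1 (0.836), and closest to Cyp3a11 were Lcorl (0.919), Siglece (0.892) and Slu7 (0.885). These genes were picked as the highest of 11837 and share the arrays and their normalization with the members, so no test is given. The background controls read below the negative control medians, so probe sets near the floor were admitted. Cyp2b9 itself was below those medians on 4 of 6 UCP1-KO-dam arrays, and Cyp3a11 varied little (within-group SD 0.11).

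**Figure D4:**
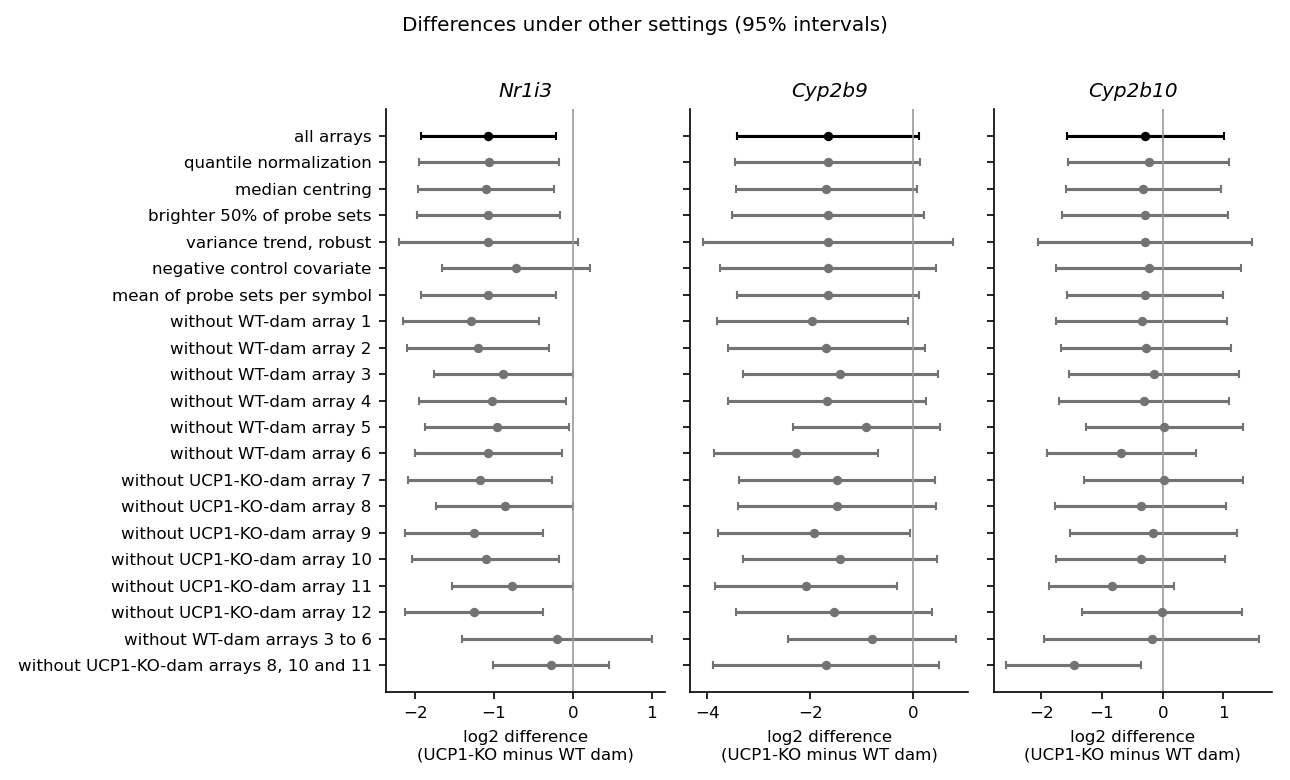
Log2 difference (horizontal axes, UCP1-KO dam minus WT dam, 95% intervals) of Nr1i3, Cyp2b9 and Cyp2b10 with all arrays (black, top) and under the 20 alternatives (grey). The Nr1i3 difference moves to -0.20 and -0.28 in the bottom rows, where WT-dam arrays 3 to 6 or UCP1-KO-dam arrays 8, 10 and 11 are left out. The Cyp2b10 difference lies below 0 in all but 2 alternatives. Its interval crosses 0 in every row except that without UCP1-KO-dam arrays 8, 10 and 11.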

How the data were processed

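The deposited values are log2 signals per probe set that the authors made, per the submitters' processing notes, with the Transcriptome Analysis Console by RMA (version and variant not given in the sources used here). RMA normalizes arrays to each other, which reduces a shift common to most genes. After 6640 control rows were left out, 22206 probe sets remained, and 19572 had 1 symbol in the platform annotation. Each was fitted with limma 3.58.1 (R 4.3.3; lmFit, eBayes, two-sided) on dam genotype alone over all 12 arrays, with no filter, and p-values were adjusted by Benjamini-Hochberg over all 22206. An adjusted p under 0.05 was a call. The number of arrays limits precision, and no detection calls were used. On simulated data for this comparison (22206 probe sets, 50 altered at each size) the fit recovered 16% at 0.5 log2, 82% at 1 and 100% at 2 and 3. The altered probe sets were drawn at random, and the median within-group SD over all probe sets was 0.28. In the simulation 155 probe sets were called, against 8 in the data, which eases the adjusted threshold. These rates do not hold for Nr1i3, Cyp2b9 and Cyp2b10, whose within-group SDs were 0.91, 1.92 and 1.39. Correlations used two-sided permutation tests with 100000 resamples, exact with 9 arrays or fewer. Promoter windows and their coordinates are RefSeq's (GRCm38.p6), and all 10 symbols matched. The named genes are all members, the 4 of smallest p per list and the 3 most alike per pattern. The members and lists were chosen with earlier results of these data known. Alternatives were quantile normalization, median centring, the brighter 50% of probe sets, a robust variance trend, the negative control median as covariate, symbol means and leaving out arrays. For the correlations, leaving out arrays singly or in the named sets was added after seeing the data.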

Additional observations from a re-analysis of the deposited data

Results flagged for a closer look

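Among the 40 genes named in any list, 80 groups of 6 arrays were examined for an array far from the other 5, and 3 had one, where chance gives about 1 in 20. For Cyp3a11, WT-dam array 3 read 18.56, the other WT-dam arrays 18.77 to 18.90. For Cyp2c54, WT-dam array 6 read 14.81, the others 15.43 to 15.70. For Hmox1, WT-dam array 2 read 11.13, the others 9.67 to 10.20.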

How the results depend on the processing

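With 6 mice a group, the fit could miss differences of 0.5 log2, and larger ones in Nr1i3, Cyp2b9 and Cyp2b10. Most Cyp2b9 and all Cyp2b13 values in offspring of UCP1-KO dams lay below the negative control medians. No member was called under any of the 20 alternatives, and the median difference over the members stayed between -0.15 and 0.05 (singly without arrays, -0.09 to 0.03). The 8 probe sets called became 32 in the brighter 50%, 22 with a robust variance trend, 2 with the negative control covariate, and 0 without WT-dam arrays 3 to 6 (limma, 1561 at an unadjusted p under 0.05) or UCP1-KO-dam arrays 8, 10 and 11 (1884). Leaving out single arrays gave 1 to 112, the omitted array being UCP1-KO-dam array 7 (54 called), 11 (5), 9 (4) or 8 (1), or WT-dam array 2 (112), 3 (3) or 6 (2), where the count moved most. The cause was not tested. No paired analysis was possible because the labels name no litter or pairing that links mice across the groups.

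These differences changed sign. Without WT-dam arrays 3 to 6 they were 0.0489 (Nr1i2), 0.35 (Cyp3a25) and -0.29 (Hmox1). Without UCP1-KO-dam arrays 8, 10 and 11 they were 0.0866 (Nr1i2), -0.15 (Cyp2b13), -0.0386 (Cyp3a13), -0.13 (Hmox1) and -0.34 (Aldh1b1, an aldehyde dehydrogenase). Cyp2b13 was -0.0178 after quantile normalization and Cyp3a25 0.16 with the covariate. Single arrays left out gave -0.84 to 0.0257 (Cyp2b10), -0.0189 to 0.15 (Cyp2b13), -0.00552 to 0.12 (Cyp3a13) and -0.21 to 0.0215 (Cyp3a25), and Etnppl passed at 0.99 without UCP1-KO-dam array 7 (limma adjusted p = 0.0460).

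These correlations, none of which passed, changed sign. Within offspring of UCP1-KO dams r was -0.317 (Nr1i3 with Cyp2b9), 0.0835 (Nr1i3 with Cyp3a11), 0.545 (Nr1i3 with Ces2a), 0.0197 (Nr1i2 with Cyp3a11), -0.511 (Nr1i2 with Cyp3a25), -0.144 (Cyp2b9 with Cyp2b13) and 0.0508 (Cyp3a11 with Cyp3a13). Within offspring of WT dams it was 0.406 (Nr1i3 with Cyp2b10) and 0.693 (Nr1i3 with Cyp2b13). Centred by group it was 0.0431 (Nr1i3 with Cyp2b13) and 0.0675 (Nr1i3 with Ces2a). After quantile normalization it was 0.111 (Nr1i3 with Cyp2b13), 0.149 (Cyp3a11 with Cyp3a13) and 0.0233 (Cyp3a11 with Cyp3a25). Without the 2 farthest arrays it was 0.349 (Nr1i3 with Cyp2b10), 0.352 (Nr1i3 with Cyp2b13), 0.00358 (Nr1i2 with Cyp3a13) and -0.101 (Cyp2b9 with Cyp2b13). Without WT-dam arrays 3 to 6 it was -0.218 (Nr1i3 with Cyp2b9), 0.120 (Nr1i3 with Cyp3a11), 0.482 (Nr1i3 with Ces2a), 0.0384 (Nr1i2 with Cyp3a11), -0.213 (Nr1i2 with Cyp3a25), -0.225 (Cyp2b9 with Cyp2b13), 0.0462 (Cyp3a11 with Cyp3a13) and 0.126 (Cyp3a11 with Cyp3a25). Without UCP1-KO-dam arrays 8, 10 and 11 it was 0.456 (Nr1i3 with Cyp2b10), 0.708 (Nr1i3 with Cyp2b13) and 0.128 (Nr1i2 with Cyp3a13). There Cyp2b9 with Cyp2b13 at 0.914 and Cyp2b10 with Cyp2b13 at 0.772 passed by r (adjusted exact permutation p = 0.0102 and 0.0496) but not by Spearman's rho (0.144 and 0.323), with Cyp2b13 below the negative controls throughout, and Cyp2b9 with Cyp2b10 passed by both. Single arrays left out gave -0.494 to 0.149 (Nr1i3 with Cyp2b10), -0.280 to 0.187 (Nr1i3 with Cyp2b13), -0.326 to 0.0408 (Nr1i3 with Ces2a), -0.279 to 0.0138 (Nr1i2 with Cyp3a13), -0.0524 to 0.293 (Nr1i2 with Cyp3a25) and -0.00593 to 0.646 (Cyp2b9 with Cyp2b13).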
